A study of Mus musculus with 12 samples.

Results

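The gene for the transcription factor p53, Trp53, and 9 well-known transcriptional targets of p53 were followed in cultured mouse bone marrow mesenchymal stem cells (MSCs), the plastic-adherent marrow cells that can form bone and fat. The 10 members, chosen by gene symbol, were Trp53, Mdm2, Bax, Zmat3, Ccng1, Sesn2, Phlda3, Gdf15, Plk2 and Trp53inp1, out of 18908 genes in each of 2 deposited tables. The Cdkn family of cell cycle inhibitors, which includes the p53 target Cdkn1a, was left out by the rule. All 10 symbols were found in both tables, and all 10 members passed the filter on low counts in both.

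The study asked how MSCs differ between young and old donors and after melatonin, a pineal hormone, with RNA sequencing of 12 libraries from cells grown in DMEM with 10% FBS. In the age table, 3 libraries came from young cells with vehicle (replicates 2, 4, 5) and 3 from old cells with vehicle (replicates 2, 8, 9). In the melatonin table, old cells with vehicle gave another 3 libraries (replicates 1, 3, 5), and 3 are labelled as old cells given 1 µM melatonin for 24 h (replicates 1, 3, 5). The labels give age as young or old only, and the sources used here do not state strain, sex or the number of animals. No genotype or allele is named for any group, and the vehicle is not named. Nothing in the labels says that libraries of a group came from separate animals or cultures. Every p-value therefore measures spread between these libraries, and whether that is spread between animals is not known.

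Before the members are described, 2 facts about the libraries have to be given. Over 13355 genes, each library of the age table had 1 best match in the melatonin table, and 6 of 6 matches were reciprocal, at Pearson r = 0.979 to 0.995 against 0.871 to 0.943 between libraries of the same group and table. The libraries labelled melatonin replicates 1, 3 and 5 matched young vehicle replicates 2, 4 and 5, and old vehicle replicates 1, 3 and 5 matched old vehicle replicates 2, 8 and 9. Within a matched pair, the median chi-square of the counts over genes was 1.77 to 6.14 times the value expected from counting error, against 25.0 to 67.7 times within groups. The matched libraries were therefore closer than any replicates but differed by more than counting error, and the labels do not account for the match. Both comparisons are given side by side and are not treated as 2 independent experiments, and no library labelled melatonin lies outside these pairs, so no value without them can be given.

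The second fact concerns cell type. The summed level of 20 macrophage genes was 17188 to 23753 CPM (counts scaled to the TMM-adjusted library size) in old vehicle replicates 3, 5, 8 and 9, and 67.1 to 1208 CPM in the other 8 libraries. The lysosomal gene Cd68, for example, reached 1256 CPM in old vehicle replicate 8 against 44.1 CPM in old vehicle replicate 2. The summed level of 12 stromal markers was 6221 to 46834 CPM, to which the collagen genes Col1a1 and Col1a2 contributed most in young replicate 5, at 23314 and 19862 CPM. Pdgfra (118 to 655 CPM), Pdgfrb (152 to 699), Cd44 (213 to 537), Ly6a (193 to 564), Cxcl12 (334 to 2123) and Prrx1 (223 to 599) were expressed in every library. The other markers were low in some or all libraries. Lepr was at 25.7 and 25.9 CPM in old vehicle replicates 2 and 1 and at most 1.77 CPM in the other 10 libraries, with 0 in melatonin replicate 5. Nt5e was at 0.907 to 10.8 CPM throughout. Eng was at 3.28 and 2.77 CPM in young and melatonin replicate 5 and reached 133 CPM in old vehicle replicate 5. Thy1 was at 12.6 to 15.5 CPM in old vehicle replicates 3, 5 and 8 and reached 608 CPM in old vehicle replicate 2. In old vehicle replicate 9 it was at 335 CPM, against 15.5 CPM in its match, old vehicle replicate 5. That pair had the lowest r of the matches, 0.979, so single genes can differ widely within it. Endothelial genes summed to at most 62.2 CPM and neutrophil and erythroid genes to at most 4.63 CPM. Lymphocyte genes reached 111 CPM in old vehicle replicate 8, nearly all of it Cd4 at 109 CPM. In bulk RNA of this kind, fewer cells of a type and less RNA per cell cannot be told apart.

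The p53 protein binds DNA as a tetramer and turns on genes that arrest the cell cycle, repair DNA or kill the cell when DNA is damaged or growth signals are abnormal. Its activity is set mainly through the stability of the protein: Mdm2, itself a p53 target, is the ubiquitin ligase that marks p53 for degradation, which closes a feedback loop. The level of Trp53 RNA is therefore not a measure of p53 activity, and the RNA of its targets is the usual readout. In marrow stromal cells p53 is known as a restraint on proliferation and on osteoblast formation.

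Promoter sequence from RefSeq (build GRCm38.p6) was held for 8 of the 10 members, and Zmat3 and Trp53inp1 were not matched. In windows of 250 bases before to 50 bases after the annotated start, the canonical p53 half-site was found in Trp53, Mdm2, Bax and Ccng1, on both strands, since the half-site consensus reads the same on each. Such a half-site was present in the windows of 9.55% of 27025 genes. A full p53 response element, 2 half-sites with a spacer of up to 13 bases, was in 0 member windows and in those of 0.074% of genes. The palindrome TGACGTCA, the cAMP response element, was searched on both strands too and was found in Plk2 alone among the members, and in 2.03% of genes. A match is a string of letters and no evidence of binding, and no match says nothing about sites elsewhere, such as the first intron of Mdm2. The 250 bases before the start are printed 5′ to 3′ for those 5 genes, because they hold the matches, with the half-site (the cAMP element in Plk2) in capitals. They lie at chr11:69580109-69580358 (plus strand), chr10:117710759-117711008 (minus), chr7:45466899-45467148 (minus), chr11:40755287-40755536 (minus) and chr13:110394794-110395043 (plus).
Trp53: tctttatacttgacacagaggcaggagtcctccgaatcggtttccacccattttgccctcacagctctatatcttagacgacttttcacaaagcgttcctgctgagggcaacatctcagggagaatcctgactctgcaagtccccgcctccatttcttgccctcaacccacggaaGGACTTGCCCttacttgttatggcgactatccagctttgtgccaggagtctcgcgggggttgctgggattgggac
Mdm2: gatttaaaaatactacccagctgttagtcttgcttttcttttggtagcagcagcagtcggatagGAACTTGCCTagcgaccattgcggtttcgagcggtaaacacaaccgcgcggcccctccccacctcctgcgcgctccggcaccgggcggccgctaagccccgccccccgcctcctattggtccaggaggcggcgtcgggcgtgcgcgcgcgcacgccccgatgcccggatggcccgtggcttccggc
Bax: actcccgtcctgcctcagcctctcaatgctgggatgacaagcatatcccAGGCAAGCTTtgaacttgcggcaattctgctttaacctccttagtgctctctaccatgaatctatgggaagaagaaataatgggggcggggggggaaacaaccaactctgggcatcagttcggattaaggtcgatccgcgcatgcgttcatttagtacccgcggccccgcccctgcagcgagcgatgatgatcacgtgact
Ccng1: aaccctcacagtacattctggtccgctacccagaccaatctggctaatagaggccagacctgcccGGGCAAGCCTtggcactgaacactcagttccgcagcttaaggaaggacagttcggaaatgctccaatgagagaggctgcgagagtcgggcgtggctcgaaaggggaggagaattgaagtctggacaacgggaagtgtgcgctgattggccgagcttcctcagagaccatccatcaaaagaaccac
Plk2: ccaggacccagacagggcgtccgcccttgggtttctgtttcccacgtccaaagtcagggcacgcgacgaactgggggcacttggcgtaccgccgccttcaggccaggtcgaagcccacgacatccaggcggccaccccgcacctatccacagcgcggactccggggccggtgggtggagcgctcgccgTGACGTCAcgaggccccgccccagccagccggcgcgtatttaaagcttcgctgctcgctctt

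Per unit of transcript length, in the authors' TPM values, Ccng1 was the most abundant member with a median of 577 TPM over the 12 libraries, and its level ran from 115 to 920 TPM. Phlda3 followed at 320.2 TPM, Bax at 278 TPM, Mdm2 at 198 TPM and Trp53 at 155 TPM. Plk2 (68.0 TPM), Sesn2 (43.7 TPM), Trp53inp1 (39.4 TPM), Zmat3 (27.4 TPM) and Gdf15 (14.1 TPM) were lower. The ranges of every neighbouring pair in this order overlapped, so none of these steps was larger than the spread between libraries. The members differed far more in how much they varied. The highest library exceeded the lowest by 1.68 times for Sesn2, 1.85 times for Trp53 and 2.09 times for Bax, by 4.98 times for Mdm2, 5.44 times for Plk2 and 7.39 times for Ccng1, and by 248 times for Gdf15. Within matched pairs the same genes differed by at most 1.47 times, the value for Gdf15.

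**Figure D1:**
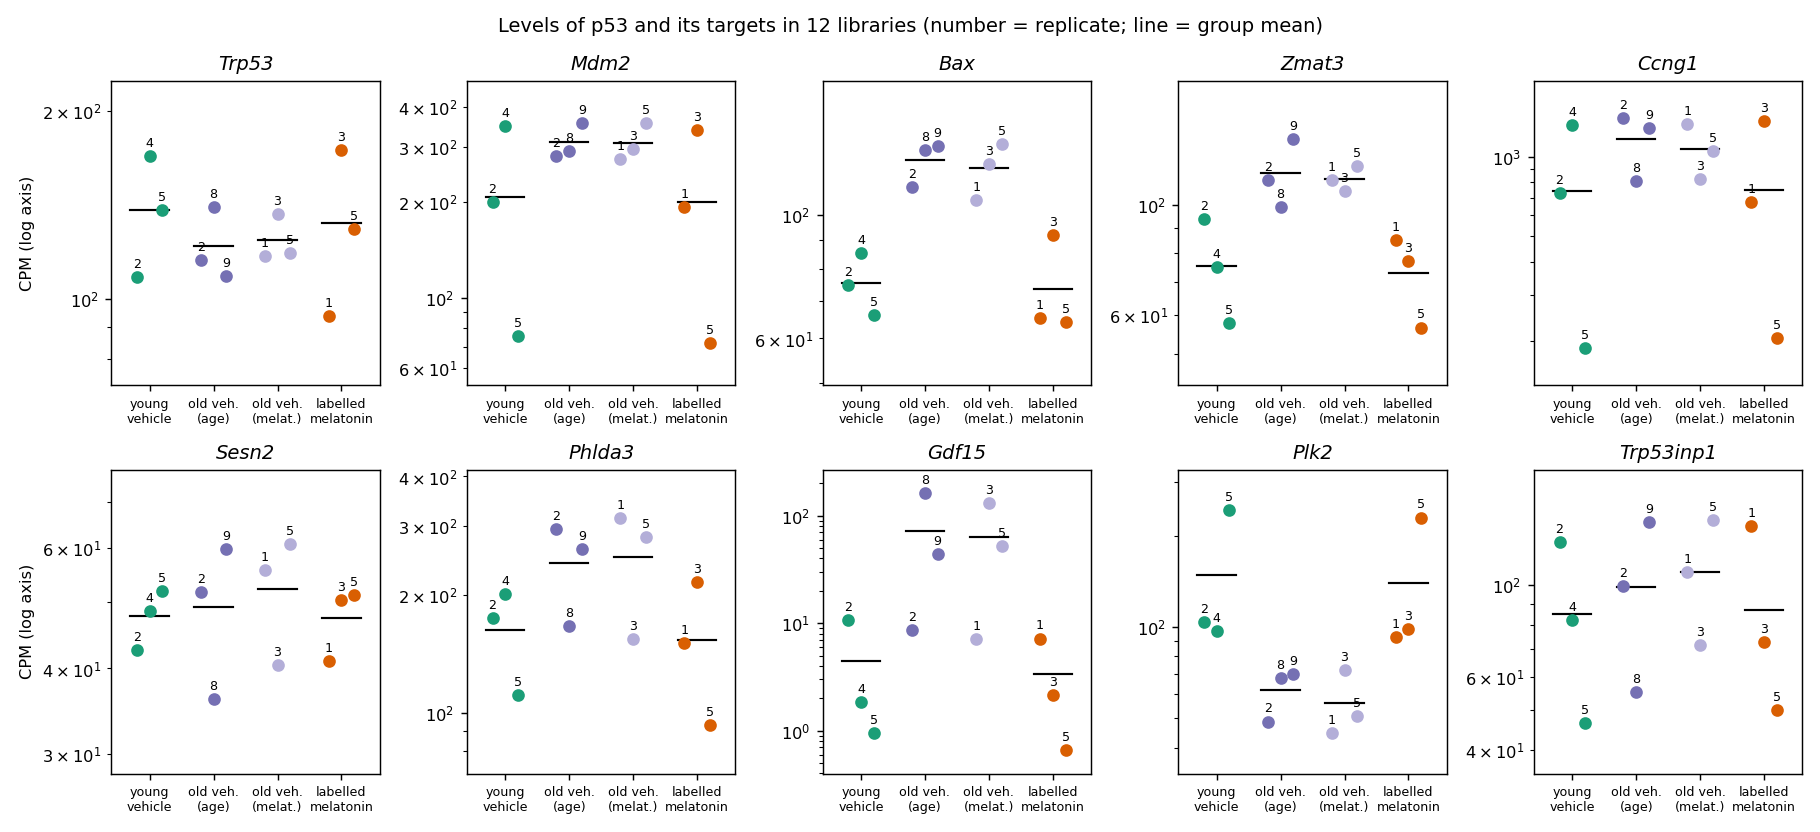
Level of each of the 10 members in CPM (log axis) in the 12 libraries, in 4 columns for young vehicle, old vehicle of the age table, old vehicle of the melatonin table and libraries labelled melatonin; points are libraries with their replicate number and black lines are group means. Replicate 5 of the young and of the melatonin libraries lies lowest of its table for Mdm2, Bax, Zmat3, Ccng1, Phlda3, Gdf15 and Trp53inp1 and highest for Plk2.

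Trp53 (gene identifier 22059) was among the least variable members. All levels from here on are CPM scaled together over the 12 libraries, and log2 changes are from edgeR within each table, n = 3 against 3. Trp53 stood at 108, 169 and 139 CPM in young vehicle replicates 2, 4 and 5 and at 115, 140.1 and 109 CPM in old vehicle replicates 2, 8 and 9. In the melatonin table it stood at 117, 136 and 118 CPM in old vehicle replicates 1, 3 and 5 and at 93.7, 173 and 129 CPM in the libraries labelled melatonin. The groups overlapped in both tables, and the matched young replicate 4 and melatonin replicate 3 held the highest values. The log2 change was -0.17 ± 0.21 (SE) for old minus young (edgeR adjusted p = 0.732) and 0.05 ± 0.23 for melatonin minus old vehicle (adjusted p = 0.937). The second value turned to -0.17 without melatonin replicate 3.

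Mdm2 (17246), the p53 ubiquitin ligase, differed little between the old vehicle libraries and widely between the others. Levels were 281, 292 and 356 CPM in old vehicle replicates 2, 8 and 9 and 274, 296 and 357 CPM in old vehicle replicates 1, 3 and 5. Young vehicle replicates 2, 4 and 5 held 201, 348 and 75.4 CPM, and the libraries labelled melatonin held 194, 338 and 71.7 CPM. Old vehicle replicate 9 (and replicate 5 in the melatonin comparison) lay just above the range of the other group, and the other old vehicle libraries within it. Young replicate 4, with the highest young Trp53 level, had an Mdm2 level close to that of old replicate 9. On the log2 scale the change was 0.60 ± 0.51 for old minus young (edgeR adjusted p = 0.618) and -0.67 ± 0.52 for melatonin minus old vehicle (adjusted p = 0.574). Leaving out young replicate 5 brought the first to 0.18, and leaving out young replicate 4 brought it to 1.17. The second was -0.22 without melatonin replicate 5 and -1.23 without melatonin replicate 3. The estimated counts of Mdm2 and Zmat3 were not whole in any library, so some of their reads were shared out with other features by the authors' counting.

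Bax and Zmat3 were the 2 targets whose levels were higher in every old vehicle library than in every young library. Bax (12028), which encodes a protein that opens the mitochondrial outer membrane in apoptosis, was at 74.9, 85.3 and 66.2 CPM in young replicates 2, 4 and 5 and at 112, 131 and 133 CPM in old replicates 2, 8 and 9. In the melatonin table it was at 106, 123 and 134 CPM in old vehicle and at 65.2, 91.9 and 64.2 CPM in the libraries labelled melatonin. The 6 old vehicle libraries lay above the other 6 without overlap. The log2 change was 0.75 ± 0.17 for old minus young and -0.76 ± 0.20 for melatonin minus old vehicle, with edgeR adjusted p = 0.315 and 0.286. DESeq2 called Bax in both comparisons (adjusted p = 0.00772 and 0.0455), and limma-voom did not call any gene.

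Zmat3 (22401), a zinc finger protein that binds RNA and acts in growth suppression by p53, was at 93.6, 75.0 and 57.9 CPM in young replicates 2, 4 and 5 and at 113, 98.9 and 136 CPM in old replicates 2, 8 and 9. Its level was 112, 107 and 119.8 CPM in old vehicle replicates 1, 3 and 5 and 85.0, 77.0 and 56.6 CPM in the libraries labelled melatonin. Again no old vehicle library overlapped with the rest, but the gap was narrow, between 93.6 CPM in young replicate 2 and 98.9 CPM in old replicate 8. On the log2 scale the change was 0.64 ± 0.24 for old minus young (edgeR adjusted p = 0.339) and -0.66 ± 0.20 for melatonin minus old vehicle (adjusted p = 0.286). Without the macrophage-rich old vehicle libraries, which leaves a lone old library in each table, Bax stood at 0.57 and -0.54 and Zmat3 at 0.58 and -0.63 in the 2 comparisons.

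Ccng1, Phlda3 and Trp53inp1 had higher means in the old vehicle libraries, with overlapping groups. Ccng1 (12450), cyclin G1, which brings a phosphatase to Mdm2, was at 727, 1313 and 189 CPM in young replicates 2, 4 and 5 and at 1397, 811 and 1283 CPM in old replicates 2, 8 and 9. Its levels were 1328, 824 and 1047 CPM in old vehicle replicates 1, 3 and 5 and 672, 1358 and 206 CPM in the libraries labelled melatonin. Young replicate 5 and melatonin replicate 5 stood far below the rest, young replicate 2 and melatonin replicate 1 were just below the old vehicle range, and young replicate 4 and melatonin replicate 3 were within or above it. The log2 change was 0.68 ± 0.65 for old minus young (edgeR adjusted p = 0.663) and -0.56 ± 0.63 for melatonin minus old vehicle (adjusted p = 0.695). Without replicate 5 of the young or of the melatonin group these came to 0.19 and -0.07.

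Phlda3 (27280), a membrane-binding protein that holds back the kinase Akt, was at 174, 201 and 111 CPM in young replicates 2, 4 and 5 and at 293, 167 and 262 CPM in old replicates 2, 8 and 9. Its level was 313, 154 and 280.0 CPM in old vehicle replicates 1, 3 and 5 and 151, 215 and 93.0 CPM in the libraries labelled melatonin. Old vehicle replicates 8 and 3, which are a matched pair, lay among the young and melatonin values. On the log2 scale the change was 0.59 ± 0.31 for old minus young (edgeR adjusted p = 0.439) and -0.74 ± 0.39 for melatonin minus old vehicle (adjusted p = 0.432). Without replicate 5 of the young or of the melatonin group these came to 0.36 and -0.44. Trp53inp1 (60599), a nuclear stress protein that also acts in autophagy, ran from 46.5 to 127 CPM in young, 55.4 to 141 CPM in old vehicle of the age table, 71.5 to 143 CPM in old vehicle of the melatonin table and 49.9 to 138 CPM in the libraries labelled melatonin. Its log2 changes were 0.23 ± 0.48 and -0.33 ± 0.45 (edgeR adjusted p = 0.852 and 0.754). The first turned to -0.09 without young replicate 5 and to -0.14 without old replicate 9. The second was -0.02 without melatonin replicate 5 and -0.86 without melatonin replicate 1.

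Gdf15 and Sesn2, 2 targets that also answer to nutrient and protein-folding stress, did not share a pattern. Gdf15 (23886), a secreted cytokine of stressed cells, was at 10.6, 1.83 and 0.960 CPM in young replicates 2, 4 and 5 and at 8.63, 163 and 43.7 CPM in old replicates 2, 8 and 9. Its level was 7.12, 130.2 and 51.8 CPM in old vehicle replicates 1, 3 and 5 and 7.20, 2.16 and 0.655 CPM in the libraries labelled melatonin. The 4 high values fell in the 4 libraries rich in macrophage transcripts, and old vehicle replicates 1 and 2 lay among the young and melatonin values. The log2 change was 4.0 ± 1.39 for old minus young and -4.25 ± 1.31 for melatonin minus old vehicle (edgeR adjusted p = 0.316 and 0.286), and DESeq2 called both (adjusted p = 0.0102 and 0.00289). Without old replicate 8 the first was 2.56, and without the macrophage-rich libraries the values were 0.93 and -1.09, each against a lone old vehicle library. What part of the Gdf15 level came from macrophages was not tested.

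Sesn2 (230784), which encodes sestrin 2, a brake on the growth kinase mTORC1, was at 42.6, 48.5 and 51.9 CPM in young replicates 2, 4 and 5 and at 51.6, 36.1 and 59.7 CPM in old replicates 2, 8 and 9. In the melatonin table it was at 55.7, 40.4 and 60.7 CPM in old vehicle and at 41.0, 50.2 and 51.1 CPM in the libraries labelled melatonin. The lowest levels of both tables were in old vehicle replicates 8 and 3, where Gdf15 was highest. On the log2 scale the change was 0.06 ± 0.22 for old minus young and -0.18 ± 0.21 for melatonin minus old vehicle (edgeR adjusted p = 0.918 and 0.710), and the first turned to -0.11 without old replicate 9.

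Plk2 (20620), a polo-like kinase induced by stress and by growth signals, had the opposite sign to the other 8 targets in both comparisons. It was at 104, 97.3 and 243 CPM in young replicates 2, 4 and 5 and at 48.8, 67.9 and 69.7 CPM in old replicates 2, 8 and 9. Its level was 44.6, 72.3 and 51.0 CPM in old vehicle replicates 1, 3 and 5 and 92.4, 98.6 and 229.7 CPM in the libraries labelled melatonin. Every old vehicle library was below every other library, and young and melatonin replicate 5 were each 2.33 times the next highest level of their table. The log2 change was -1.23 ± 0.41 for old minus young (edgeR adjusted p = 0.315) and 1.30 ± 0.42 for melatonin minus old vehicle (adjusted p = 0.294). Without young replicate 5 the first was -0.70, and without melatonin replicate 5 the second was 0.77. Without the macrophage-rich libraries they were -1.60 and 1.64.

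**Figure D2:**
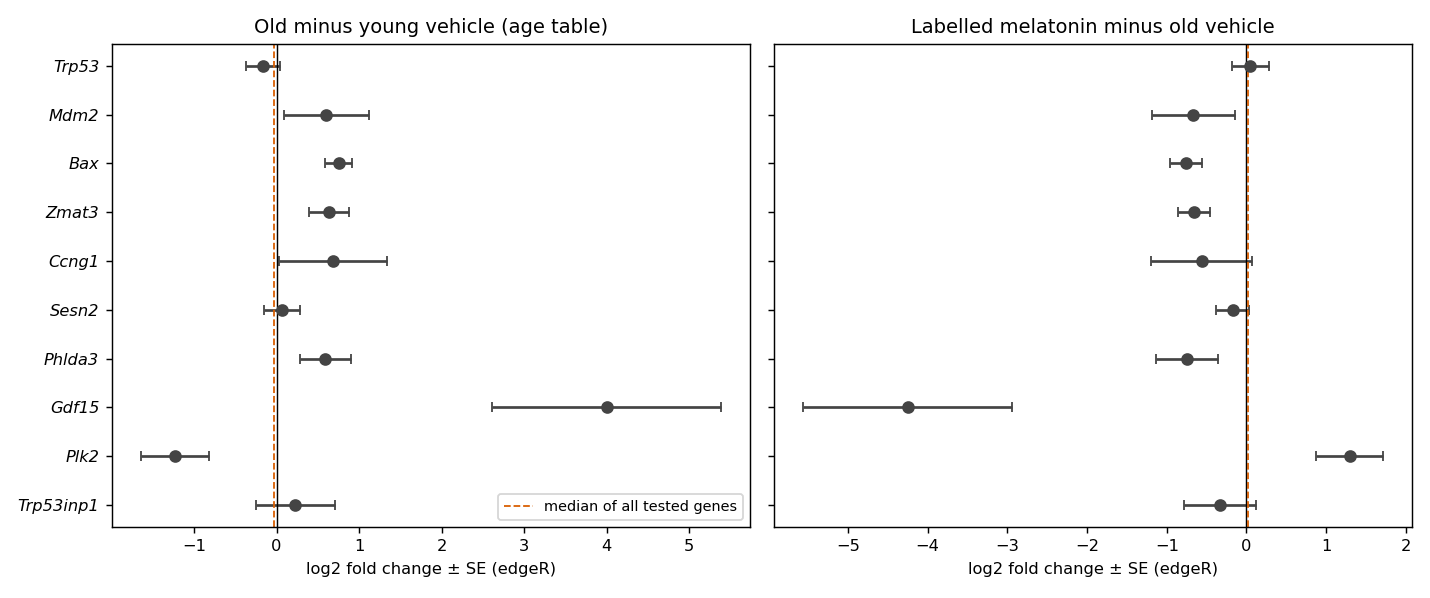
Log2 fold change with its SE (edgeR) of the 10 members for old minus young vehicle (left) and for the libraries labelled melatonin minus old vehicle (right); the dashed line is the median of all tested genes. The changes of Gdf15 and Plk2 are the largest in each panel and have opposite signs, and the 2 panels are close to mirror images, drawn from libraries that match in pairs.

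Across the members, 8 of 10 had a positive and 2 a negative log2 change for old minus young, with a median of 0.60 beside -0.02 over all 13547 tested genes. For melatonin minus old vehicle 2 were positive and 8 negative, with a median of -0.61 beside 0.02 over 13471 genes. No member passed an edgeR adjusted p under 0.05 in either comparison, and neither did any other gene (0 of 13547 and 0 of 13471, a background of 0.0% in each). At an unadjusted p under 0.05 stood 4 of 10 members in each comparison (Bax, Zmat3, Gdf15 and Plk2), beside 13.8% and 14.2% of all genes. Of these, 3 were higher and 1 lower in old libraries, beside 8.81% and 4.95% of genes, and 1 was higher and 3 were lower in the libraries labelled melatonin, beside 4.76% and 9.45%. DESeq2 called 865 of 13547 and 895 of 13471 genes, among them Bax and Gdf15 as the only members (2 of 10), and limma-voom called 0. For old minus young, 2 members did not overlap upward beside 8.89% of genes and 1 downward beside 9.46%. For melatonin minus old vehicle, 1 did not overlap upward beside 10.0% of genes and 2 downward beside 8.99%. Of all genes tested in both tables, 5.23% had all 6 old vehicle libraries above the other 6 and 5.58% had them below, as Bax and Zmat3 and as Plk2 had. Cdkn1a, which encodes the p21 inhibitor and lies outside the rule, was also higher in every old vehicle library. It stood at 242 ± 34.3 CPM (SD) in the young group and 578 ± 187 CPM in the old (log2 change 1.29 ± 0.29, edgeR adjusted p = 0.315), and 0.64 without old replicates 8 and 9. DESeq2 called Cdkn1a in both comparisons (adjusted p = 0.00514 and 0.00807), and edgeR called it for melatonin minus old vehicle without old vehicle replicate 1 (adjusted p = 0.0414).

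**Figure D3:**
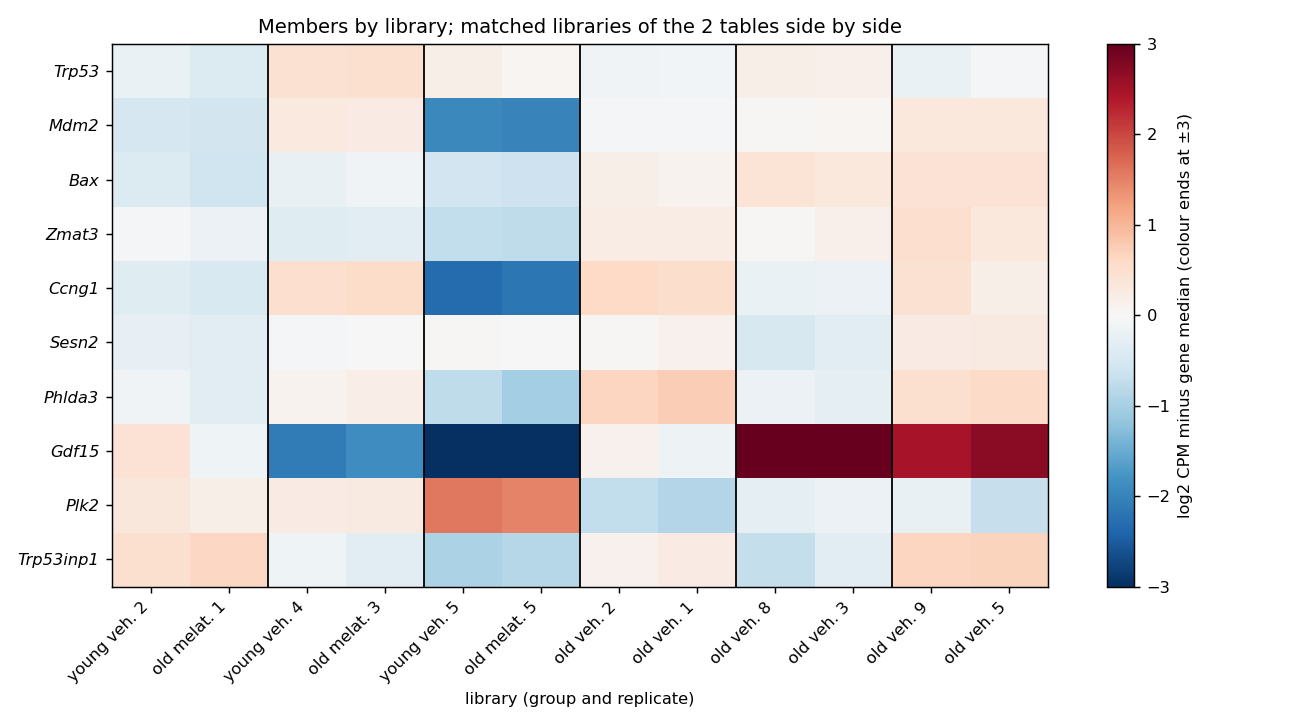
Level of each member in each library as log2 CPM minus the gene's median over 12 libraries (colour from -3 to 3), with the 6 matched pairs of libraries side by side between black lines. The colours agree within pairs, Gdf15 is darkest red in old vehicle 8 and 3, and young 5 with melatonin 5 shows low Mdm2 and Ccng1 beside high Plk2.

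One matched pair, young vehicle replicate 5 and melatonin replicate 5, was low for most p53 targets while its Trp53 level was in the middle of the range. The pair was singled out after its values were seen, so the counts are a description with no test. In young replicate 5, 7 of 10 members (70.0%) were at their lowest of the 6 libraries of the age table, beside 21.9% of all tested genes. The next lowest library of that table exceeded it by 3.84 times for Ccng1, 2.66 times for Mdm2 and 1.91 times for Gdf15, but by 1.13 times for Bax. Melatonin replicate 5 had the same 7 members at their lowest, beside 21.5% of genes. In the 3 lists of other p53 targets, 23 of 40 tested genes (57.5%) were lowest in young replicate 5 and 22 of 40 (55.0%) in melatonin replicate 5. These included the death receptor genes Fas and Tnfrsf10b, the apoptosis genes Pmaip1, Perp and Aen, and the glycolysis regulator Tigar, in both libraries. Of the 40 genes, 5 were highest in young replicate 5, beside 25.9% of genes: Bbc3 of the apoptosis list, Gadd45a, Sesn1, Ddb2 and Steap3. In melatonin replicate 5 it was 4 of 40, the same genes without Bbc3, beside 24.0%. Of 19 p53 regulators, 2 were lowest and 7 highest in young replicate 5, the latter including Mdm4, the Mdm2-related p53 inhibitor, and the ribosomal genes Rpl5 and Rpl11, whose proteins bind Mdm2. Cdkn2a, whose second product Arf inhibits Mdm2, was chosen after its values were seen and was at 1.31 and 1.46 CPM in this pair and at 30.3 CPM or more in the other 10 libraries. The same 2 libraries had the highest summed stromal marker level, 46834 and 45056 CPM. By mean log2 CPM of those 12 markers they stood at 7.84 and 7.67, below old vehicle replicates 2 and 1 at 8.26 and 8.30. Macrophage genes summed to 166 and 214 CPM in them, and the part of either cell type in the pattern was not tested.

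**Figure D4:**
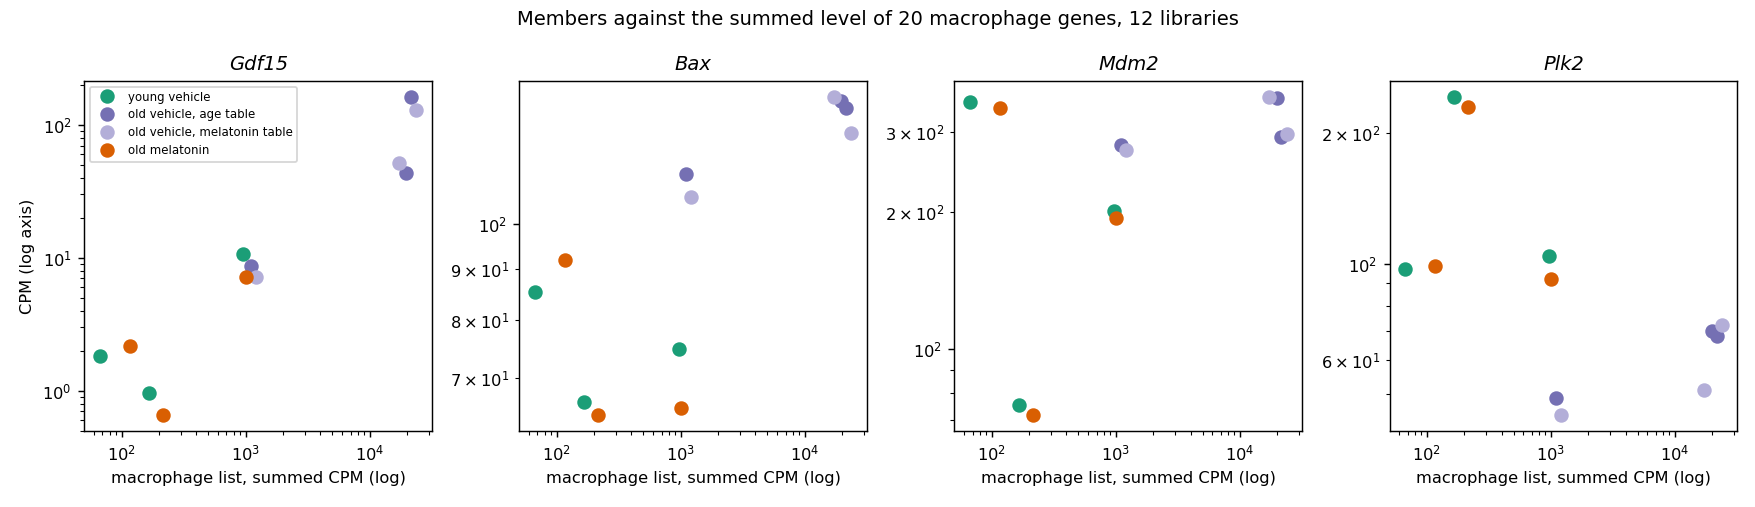
Level in CPM of Gdf15, Bax, Mdm2 and Plk2 (log axes) against the summed CPM of 20 macrophage genes in each of the 12 libraries, coloured by group. Gdf15 is at or under 10.6 CPM in the 8 libraries with at most 1208 summed CPM of macrophage genes and at 43.7 CPM or more in the 4 with at least 17188. Bax is at 106 and 112 CPM in old vehicle replicates 1 and 2 and at 123 to 134 CPM in those 4, and Plk2 at 44.6 and 48.8 CPM against 51.0 to 72.3 CPM.

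Other genes of the pathway were read from the same fits, and 0 of them passed edgeR's adjusted threshold in either direction and either comparison. Of 19 tested kinases and regulators of p53, 19 were lower in old than young libraries (median log2 change -0.23), and 17 of 19 were higher in the libraries labelled melatonin than in old vehicle (median 0.23), beside 52.3% of all genes lower and 51.7% higher. The libraries were not uniform. By mean log2 CPM of the list, old vehicle replicates 2 and 1 (4.86 and 4.88) were close to young replicate 2 (4.88) and melatonin replicate 1 (4.90). Macrophage-rich old vehicle replicates 8, 9, 3 and 5 were at 4.71, 4.70, 4.74 and 4.76. Young replicates 4 and 5 were at 5.08 and 5.10, and melatonin replicates 3 and 5 at 5.08 and 5.16. Atm, the kinase that signals DNA breaks to p53, stood at 43.4 ± 10.6 CPM (SD) in the young group and 24.9 ± 5.89 CPM in the old. The log2 difference of Atm was -0.78 ± 0.26 (edgeR adjusted p = 0.315), and 0.79 ± 0.21 in the other comparison (adjusted p = 0.286). The deacetylase gene Sirt1 had -0.52 ± 0.22 and 0.45 ± 0.22, with groups that did not overlap. Rpl5 had -0.49 ± 0.28 and 0.53 ± 0.28, the acetyltransferase gene Crebbp -0.33 ± 0.20 for old minus young and the checkpoint kinase gene Chek1 0.96 ± 0.52 for melatonin minus old vehicle, all with overlapping groups. In the list, 1 of 19 genes, Atm, had an unadjusted p under 0.05 in each comparison, beside 13.8% and 14.2% of all genes.

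Apoptosis targets outside the members mostly had the sign of Bax. In old libraries 11 of 13 were higher than in young (median 0.20), beside 47.7% of all genes. In the libraries labelled melatonin 11 of 13 were lower (median -0.27), beside 48.3%. Young and melatonin replicate 5 each held the lowest level of their table for 9 of 13. The summed level in young replicate 4 and melatonin replicate 3, 766 and 748 CPM, was above that of every old vehicle library (545 to 673 CPM). The nuclease gene Aen stood at 61.2 ± 24.9 CPM in the young group and 101 ± 4.65 CPM in the old, with a log2 difference of 0.74 ± 0.32, and of -0.88 ± 0.34 in the melatonin comparison (edgeR adjusted p = 0.375 and 0.334). Fas had 0.78 ± 0.39 and -0.76 ± 0.44, and the BH3 protein gene Bid 0.497 ± 0.31 and -0.53 ± 0.29. Perp differed by 1.24 ± 0.92 for old minus young and Apaf1, of the apoptosome, by 0.20 ± 0.18 for melatonin minus old vehicle. Within the list, 0 of 13 genes had an unadjusted p under 0.05 for old minus young, beside 13.8% of all genes. For melatonin minus old vehicle 1 of 13 did, Aen, beside 14.2%.

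The arrest and repair targets were split, 8 of 13 being above and 5 below the young group in the old group (median 0.03) and 7 higher and 6 lower in the libraries labelled melatonin (median 0.02). Against Cdkn1a stood Ddb2, which recognises ultraviolet damage, at 7.78 ± 1.79 CPM in the young group and 4.02 ± 0.741 CPM in the old, with log2 changes of -0.94 ± 0.33 and 0.79 ± 0.35 (edgeR adjusted p = 0.319 and 0.374). The damage-inducible gene Gadd45a had -0.71 ± 0.40 and 0.83 ± 0.30, and the repair gene Xpc 0.50 ± 0.32 and -0.61 ± 0.35. Metabolic and other targets were split as well, 8 of 14 tested genes being above and 6 below the young group in the old group (median 0.33) and 5 higher and 9 lower in the libraries labelled melatonin (median -0.26). Of these, the autophagy regulator Dram1 had 1.11 ± 0.32 and -1.31 ± 0.53, and the peptide transporter Tap1, which immune cells also express, 0.92 ± 0.36 and -1.32 ± 0.47. Sco2, of cytochrome oxidase assembly, had 0.56 ± 0.25 and the transcription factor gene Foxo3 -0.41 ± 0.21 for old minus young. For melatonin minus old vehicle, the glutaminase gene Gls2 had 1.43 ± 0.49 at 1.47 CPM or less on average, and the adenylate kinase gene Ak1 -0.85 ± 0.47. The smallest edgeR adjusted p of any gene in these lists was 0.315 for old minus young and 0.286 for melatonin minus old vehicle. Beside the lists, 47.7% of all genes were higher in old libraries and 51.7% in the libraries labelled melatonin.

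The integrated stress response, the ATF4 pathway, can also raise Sesn2 and Gdf15. The factor Atf4 itself stood at 318 ± 72.0 CPM in the young group and 204 ± 12.1 CPM in the old, with a log2 difference of -0.62 ± 0.22, and of 0.70 ± 0.21 for melatonin minus old vehicle (edgeR adjusted p = 0.316 and 0.286). The serine synthesis gene Psat1 had -1.41 ± 0.33 and 1.54 ± 0.39, and the glutathione-degrading gene Chac1 -1.59 ± 0.50 and 1.71 ± 0.53. Asns, asparagine synthetase, had -0.86 ± 0.25 for old minus young and the factor gene Ddit3 1.28 ± 0.39 for melatonin minus old vehicle. In this list 8 of 12 genes were lower in old libraries beside 52.3% of all genes, and 5 of 12 were so at an unadjusted p under 0.05 beside 4.95%. In the libraries labelled melatonin 7 of 12 were higher, close to the 51.7% of all genes, and 6 of 12 were so at an unadjusted p under 0.05 beside 4.76%. By mean log2 CPM of the list, young replicate 4 (4.72) was below old vehicle replicates 2, 8 and 9 (4.74, 5.35 and 5.39). Young replicates 2 and 5 were at 5.75 and 6.09. Melatonin replicate 3 (4.85) was below old vehicle replicates 3 and 5 (5.35 and 5.16) and above replicate 1 (4.65). By summed CPM, young libraries (778 to 1447) were all above old vehicle of the age table (632 to 753). Proliferation genes, which p53 activity holds down through p21, had 14 of 18 lower in old libraries (median -0.46), beside 52.3% of all genes. In the libraries labelled melatonin 15 of 18 were higher (median 0.51), beside 51.7%. All had an unadjusted p above 0.05 in both comparisons. Foxm1 had -0.89 ± 0.68 and 0.85 ± 0.61, Ccnb1 -0.79 ± 0.66 and 0.86 ± 0.57, Plk1 -0.63 ± 0.54 and Mcm2 -0.62 ± 0.55 for old minus young, and Tyms 0.50 ± 0.36 and Bub1 0.78 ± 0.63 for melatonin minus old vehicle. Their groups overlapped in every case. The summed proliferation level was highest in young replicate 4 and melatonin replicate 3, at 2150.3 and 2199 CPM. That pair also had the highest Trp53 level. Young replicates 2 and 5, at 839 and 867 CPM, were below old vehicle replicates 2 and 8, at 1200 and 1347.5 CPM. Old vehicle replicate 9 was lowest, at 542 CPM. By median the sum was 867 CPM in young and 1200 CPM in old vehicle of the age table. It was 1130 CPM in old vehicle of the melatonin table and 1016 CPM in the libraries labelled melatonin.

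Likeness of pattern was measured as Pearson r of log2 CPM over the 12 libraries among 6601 well-expressed genes, as a description without a test, since the libraries form 6 matched pairs. Closest to Trp53 were Traf4 (r = 0.974), Srsf2 (0.965), Aph1a (0.959), Fbl (0.956) and Tbrg4 (0.955). None of these is a member. Between Trp53 and its targets r was 0.09 for Mdm2, 0.03 for both Bax and Ccng1, and 0.25 for Plk2. It was -0.05 for Sesn2, -0.14 for Phlda3, -0.26 for Gdf15, -0.43 for Zmat3 and -0.65 for Trp53inp1. Over the 10 libraries without young and melatonin replicate 5, r was 0.61 for Mdm2, 0.15 for Bax, 0.42 for Ccng1 and 0.27 for Plk2. There it was -0.08 for both Sesn2 and Phlda3, -0.23 for Gdf15, -0.52 for Zmat3 and -0.76 for Trp53inp1. Closest to Mdm2 were Dda1 (r = 0.986), Blcap (0.984), Tmed5 (0.981), Tmbim4 (0.980) and BC031181 (0.980), and Ccng1 came at rank 15 with r = 0.959. Without young and melatonin replicate 5, r was 0.900 for Dda1, 0.939 for Blcap, 0.907 for Tmed5, 0.837 for Tmbim4 and 0.865 for BC031181. The relation of Mdm2 with Ccng1 was 0.70 without young and melatonin replicate 5, and that with Zmat3 went from 0.78 to 0.23, so both rest in part on that pair. Closest to Gdf15 were Ctsd (r = 0.982), Cmip (0.981), Ctsb (0.981), Fxyd5 (0.979) and Acsl1 (0.978), of which Ctsd and Ctsb encode lysosomal cathepsins. Bax was closer to Cdkn1a (r = 0.965, and 0.965 without that pair) than to Mdm2 (0.76).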

How the data were processed

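RNA-seq of 12 libraries was used, prepared by a BGISEQ-500 protocol from Trizol RNA, per the labels' protocols. Bowtie2, BWA, RSEM and build mm39 are named, per the submitters' processing notes, without roles or versions. Strand setting and annotation were not given in the sources used here. Each of the 2 tables deposited by the authors gives 3 values for every library, per the file headers. The authors' estimated count is often fractional (62.5% of those above 0 were whole to within 0.005). The authors' FPKM was not used. The authors' TPM served only to order the genes by level. Library totals were 20595378 to 21309663 estimated counts, with 15607 to 16774 genes counted. On the TMM-scaled library sizes, 3 counts equal 0.136 to 0.152 CPM.

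Counts were rounded, filtered with edgeR's filterByExpr (minimum count 10, minimum total 15), scaled by TMM and tested within each table by edgeR's quasi-likelihood test (edgeR 4.0.16, R 4.3.3) with Benjamini-Hochberg adjustment over all tested genes and a threshold of 0.05. The SE is the log2 change divided by the square root of F. CPM in the text use one TMM scaling over the 12 libraries. The fit was also run on simulated counts, but the outcome is not given and no statement here rests on it. Alternatives were DESeq2 1.42.0, limma-voom (limma 3.58.1), no filter, an adjusted p under 0.1, all old vehicle libraries, a replicate block and each library left out. Leaving out the macrophage-rich libraries was added after the data were seen, as were the pathway counts under the alternatives.

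The members and lists were chosen with earlier results of these data known. By rule, the named genes are the 10 members, Cdkn1a, up to 4 genes with the smallest p of each pathway list and the 5 genes most like Trp53, Mdm2 and Gdf15. Cell type markers, Cdkn2a and the list genes named for young and melatonin replicate 5 fall outside the rule and were chosen after their values were seen. The p53 half-site has 10 bases. Promoter coordinates are GRCm38.p6 and were not related to the mm39 data.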

Additional observations from a re-analysis of the deposited data

How the results depend on the processing

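None of the 10 members was called by edgeR under any filter, with adjusted p under 0.1, with all old vehicle libraries, without single libraries (0 to 0 in both comparisons) or without the macrophage-rich libraries. DESeq2 called 2 of 10 members in each comparison. Of all genes it called 865 of 13547 for old minus young and 895 of 13471 for melatonin minus old vehicle. From the pathway lists, with 19, 13, 13, 14, 12 and 18 tested genes, it called 3 and 4 genes. Why DESeq2 called more genes than edgeR was not tested. With all old vehicle libraries against young, 46 genes were called and 0 members, but these libraries match in pairs, so their number overstates the replication. Leaving out 1 library gave 0 to 602 calls among all genes for melatonin minus old vehicle (602 without old vehicle replicate 1) and 0 to 1 among pathway genes. Over 20 member results and 220 alternatives, 212 kept direction and side of the threshold, 4 turned direction and 4 were called by DESeq2. This count is no measure of stability, since the main fit called 0 genes and the alternatives reuse the same libraries. It also passes over size: Ccng1 for melatonin minus old vehicle went from -0.56 to -0.07 without melatonin replicate 5 and was counted as kept. As single libraries were left out, Sesn2 ran from -0.11 to 0.25 and Trp53inp1 from -0.14 (-0.09 without young replicate 5) to 0.66 for old minus young, and Trp53 from -0.17 to 0.24 for melatonin minus old vehicle. With the replicate block, edgeR called 0 genes, 0 members and 0 pathway genes. Deviations from the group mean correlated at -0.25, 0.10 and -0.02 between same-numbered vehicle and melatonin libraries, and at -0.25 to 0.31 between other-numbered ones. With 3 libraries per group, these values cannot show whether equal numbers mark a pair. No paired analysis was run for old minus young because the labels name no pairs of young and old libraries. The biological coefficient of variation was 0.48 in both tables. Dixon's criterion for an outlying library says nothing about the 6 old vehicle libraries, since they form 3 matched pairs.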
